A study of Homo sapiens with 3 samples.

Results

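Human chromosome 19 carries the densest gathering of zinc finger (ZNF) genes in the genome, and 229 of them had a probe on the arrays described here. They were chosen by name and place, not by their values: each carries the name ZNF with digits and at most 1 closing letter, and its probe lies on chromosome 19. After the left edge of the arrays, where 1 array had a low control channel, was left out of all 3 (columns 1 to 9), 217 of the 229 genes kept a probe, of 17460 genes measured in all, and each was read from its brightest probe. The remaining 12 genes had probes in those columns alone.

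All values come from 1 clone, YB5, made from SW48 colon cancer cells. Its genome carries a GFP transgene whose viral (CMV) promoter is methylated. On the evidence of the labels, the decitabine-labelled array held cells given 25 nM decitabine, an inhibitor of DNA methyltransferases, the carboplatin-labelled array held cells given 20 µM carboplatin, a platinum compound that crosslinks DNA, and the combination array held cells given 25 nM and 20 µM together. Drugs were given in 4 doses on days 1 to 4, RNA was taken on day 6, and control cells received DMSO. Treated RNA was in the green channel (Cy3) and control RNA in the red channel (Cy5) of every array, so that a preference of a probe for 1 dye is part of each change. There was 1 array per treatment, all on 1 slide, and their number limits the precision: replicate error cannot be estimated, and nothing was tested. Which agent each single-agent array holds rests on its label alone. The study's text describes carboplatin as the agent with the wider effect on expressed genes, whereas more genes changed on the decitabine-labelled array. The labels of these 2 arrays may therefore be exchanged relative to the study's account, and each direction given for a single agent holds for the labelled array alone. The arrays are named by their labels throughout.

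A zinc finger of the C2H2 type is a short protein loop held by a zinc ion, and a row of such fingers reads a DNA sequence. Many of the chromosome 19 proteins also carry a KRAB domain, which binds TRIM28 (KAP1), and TRIM28 in turn gathers SETDB1, heterochromatin protein HP1 and DNA methyltransferases into a silencing complex. These genes arose by repeated tandem duplication, so that neighbours resemble each other, and a known task of the family is to silence transposable elements. The genes themselves are known to lie in chromatin bearing the same silencing marks.

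Along the chromosome the 217 genes formed 9 clusters when a gap of over 1 Mb between neighbouring probes opened a new cluster and at least 5 genes were asked for. In GRCh37 (hg19), the build of the scanner files, cluster 1 lay at 2.8 to 2.9 Mb (5 genes), cluster 2 at 8.6 to 9.8 Mb (11 genes) and cluster 3 at 11.6 to 12.7 Mb (24 genes). Cluster 4 lay at 19.8 to 24.3 Mb, on the flank of the centromere, with 34 genes. On the long arm followed cluster 5 at 35.2 to 35.4 Mb (5 genes), cluster 6 at 36.7 to 38.2 Mb (24 genes), cluster 7 at 44.0 to 45.0 Mb (20 genes), cluster 8 at 52.1 to 54.1 Mb (34 genes) and cluster 9 at 56.1 to 59.0 Mb (50 genes). Another 10 genes lay outside these clusters. The files give a gene for each probe of 60 bases, and not the exon or untranslated region it reads.

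The promoters of 5 members are shown first because the results below turn on these genes: ZNF561, ZNF121 and ZNF556 rose on the decitabine-labelled and combination arrays, ZNF627 had the deepest fall, and ZNF382 is a member known for promoter methylation in tumours whose probe stayed at background. The 250 bases before the RefSeq start are given 5′ to 3′ on the gene's own strand (RefSeq, GRCh38.p14), with each CpG pair, the site of DNA methylation, in capitals.
ZNF561, chr19:9621233-9621482, minus strand: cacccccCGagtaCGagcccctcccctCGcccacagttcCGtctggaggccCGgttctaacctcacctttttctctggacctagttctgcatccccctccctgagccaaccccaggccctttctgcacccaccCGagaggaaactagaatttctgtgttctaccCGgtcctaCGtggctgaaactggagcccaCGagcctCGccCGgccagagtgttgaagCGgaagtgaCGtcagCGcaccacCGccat
ZNF121, chr19:9584505-9584754, minus strand: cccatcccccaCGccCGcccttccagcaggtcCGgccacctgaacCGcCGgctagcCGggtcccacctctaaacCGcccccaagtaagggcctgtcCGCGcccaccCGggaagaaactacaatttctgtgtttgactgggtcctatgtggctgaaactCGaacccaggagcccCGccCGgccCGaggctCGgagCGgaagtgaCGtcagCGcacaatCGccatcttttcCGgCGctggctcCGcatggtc
ZNF556, chr19:2867085-2867334, plus strand: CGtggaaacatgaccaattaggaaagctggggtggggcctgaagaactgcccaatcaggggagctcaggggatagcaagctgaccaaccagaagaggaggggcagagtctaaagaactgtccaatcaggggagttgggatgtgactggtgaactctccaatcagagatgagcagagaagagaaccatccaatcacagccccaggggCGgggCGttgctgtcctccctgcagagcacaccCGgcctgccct
ZNF627, chr19:11597233-11597482, plus strand: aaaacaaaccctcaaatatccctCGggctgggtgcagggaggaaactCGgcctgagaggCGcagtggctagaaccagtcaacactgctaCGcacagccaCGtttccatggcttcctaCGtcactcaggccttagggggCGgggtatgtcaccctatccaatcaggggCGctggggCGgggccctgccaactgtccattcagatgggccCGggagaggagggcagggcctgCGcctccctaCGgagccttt
ZNF382, chr19:36605063-36605312, plus strand: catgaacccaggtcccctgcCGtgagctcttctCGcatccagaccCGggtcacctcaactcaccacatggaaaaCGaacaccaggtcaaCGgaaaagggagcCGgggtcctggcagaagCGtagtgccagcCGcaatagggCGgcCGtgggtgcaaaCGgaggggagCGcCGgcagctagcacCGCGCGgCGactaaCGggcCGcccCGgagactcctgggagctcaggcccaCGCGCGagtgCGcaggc
These windows hold 15 CpG pairs for ZNF561, 22 for ZNF121, 4 for ZNF556, 12 for ZNF627 and 24 for ZNF382. The ZNF556 window instead holds 5 copies of CCAAT, counted on both strands, against 1 in ZNF627 and 0 in the other 3.

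Most of these genes were quiet or moved little. On the decitabine-labelled array 7 of 217 rose at least 1.5-fold and 1 fell, on the carboplatin-labelled array 1 rose and 0 fell, and on the combination array 4 rose and 2 fell. A change of 1.5-fold is 0.585 on the log2 scale, and every change below is treated minus control signal on that scale. For rises the member shares were 3.23%, 0.461% and 1.84%, beside 5.12%, 2.73% and 7.39% of all genes. For falls they were 0.461%, 0% and 0.922%, beside 4.9%, 1.41% and 5.82% of all genes. In each array and direction the share among the members was below that among all genes. Over 9 other ways of processing the arrays, not all of them separate checks, this held for 51 of 54 shares. The exceptions were rises with the scanner software's processed signals on the decitabine-labelled array (71 of 217 or 32.7%, beside 22.7% of all genes, with 14 falls), and rises with median centring on the decitabine-labelled array (5.53% beside 5.43%) and the carboplatin-labelled array (7.83% beside 4.67%). Processed signals and the software's log ratio gave the same counts of members save for rises on the decitabine-labelled array. On the decitabine-labelled, carboplatin-labelled and combination arrays the median change of the members was 0.02, 0.02 and -0.02, beside -0.00, -0.00 and 0.01 over all genes. With processed signals the median of the members was 0.202 and 0.157 on the single-agent arrays, beside 0.054 on each over all genes.

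**Figure D1:**
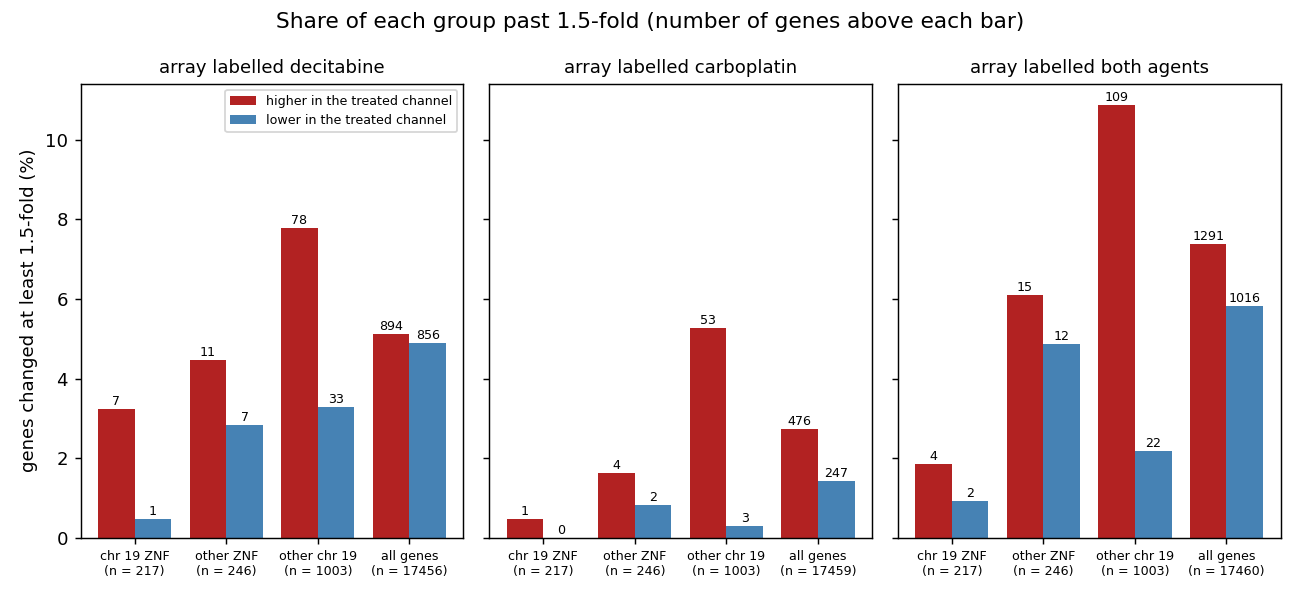
Share of genes (%) changed at least 1.5-fold on each array, with rises in red and falls in blue, for the 217 chromosome 19 ZNF genes, 246 ZNF genes on other chromosomes, 1003 other genes of chromosome 19 and all genes. The number above each bar counts the genes, and the chromosome 19 ZNF bars are lower than the all-gene bars in all 3 panels.

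ZNF genes on other chromosomes moved more often than those of chromosome 19. Of 246 such genes, 11 rose and 7 fell on the decitabine-labelled array (4.47% and 2.85%). On the carboplatin-labelled array 4 rose and 2 fell (1.63% and 0.813%), and with both agents 15 rose and 12 fell (6.10% and 4.88%). Their probes were also brighter, with a median control level of 8.95 beside 7.43 for the members. Of them 37 of 246 lay among the dimmest 25% of genes by control signal, beside 81 of 217 members. The part of brightness in this gap was not tested. Of the other 1003 genes of chromosome 19, 78 rose and 33 fell on the decitabine-labelled array (7.78% and 3.29%). On the carboplatin-labelled array 53 rose and 3 fell (5.28% and 0.299%), and with both agents 109 rose and 22 fell (10.9% and 2.19%). Between the ZNF genes, inside the same clusters, lay 64 genes of other kinds, of which 3, 3 and 5 rose (4.69%, 4.69% and 7.81%) and 1, 0 and 1 fell. The shares of rises on the decitabine-labelled and combination arrays were near those of all genes.

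The probes of the members were dim more often than those of all genes. The part of dim probes in the low share was not tested. Both channels were well above background, by the flag of the scanner software, for 124, 129 and 128 of the 217 members on the decitabine-labelled, carboplatin-labelled and combination arrays, which is 57.1% to 59.4%, beside 70.6% to 73.0% of all genes. A total of 77 members were above background in no channel of any array, and for these a change has no meaning as a level of RNA. Among members above background in both channels, 5.65% rose and 0.806% fell on the decitabine-labelled array, beside 7.0% and 6.79% of all genes above background. On the carboplatin-labelled array 0.775% rose and 0% fell, beside 3.43% and 1.93%. With both agents 3.12% rose and 1.56% fell, beside 9.62% and 7.94%. The gap was narrowest, as a ratio, for rises on the decitabine-labelled array. Of the 81 members among the dimmest 25% of genes by control signal, 0 rose or fell on any array. Over all genes of that range 0.756%, 1.03% and 1.9% rose and 0% fell, so that this count is near the background. In the next 25% (73 members) 5.48%, 1.37% and 2.74% rose, beside 5.68%, 4.1% and 9.74% of all genes there. In the 25% above those (49 members) 6.12%, 0% and 4.08% rose, beside 8.07%, 3.85% and 10.3%. In both ranges the share of falls was below that of all genes on every array.

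Whether a member was above background differed by cluster. All 5 genes of cluster 1, 10 of 11 in cluster 2 and 20 of 24 in cluster 3 were above background in all 6 channels. In cluster 6, at 36.7 to 38.2 Mb, 3 of 24 were: ZNF565, ZNF146 and ZNF607. There 20 genes stood above background in no channel, among them ZNF382, ZNF420, ZNF568, ZNF585A and ZNF585B. Cluster 8 had 11 of 34 above background in all channels and 18 in none, and cluster 9 had 26 of 50 and 18. A dim probe may read its transcript weakly, so a probe at background does not show that its gene is silent.

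**Figure D2:**
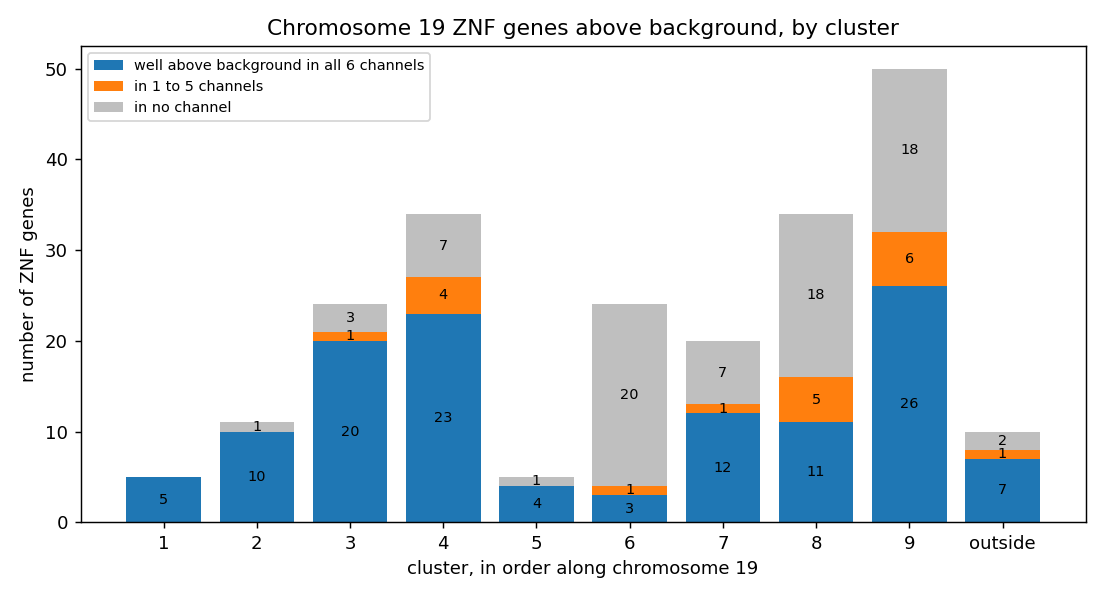
Number of ZNF genes per cluster in order along chromosome 19 whose probe was well above background in all 6 channels (blue), in 1 to 5 (orange) or in none (grey). Cluster 6 has 20 of 24 genes in grey, whereas cluster 1 has 0 and cluster 2 has 1.

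ZNF561, in cluster 2, changed more than any other member. Its probe (chr19:9721168-9721227, minus strand, GRCh37) read 8.69 in control cells and 10.92 in treated cells on the decitabine-labelled array, 8.74 and 8.78 on the carboplatin-labelled array, and 8.73 and 10.49 with both agents, as normalised log2 intensity. The control channels thus lay close together, and the treated channel stood apart on 2 of the 3 arrays. The change was 2.23, 0.04 and 1.76, or 4.68-fold, 1.03-fold and 3.38-fold. A second probe of ZNF561 gave 1.80, -0.04 and 1.31. For scale, the SD of repeated spots of 1 probe within an array was 0.0787, 0.0740 and 0.0761 (264 probes spotted 10 times each), a technical error that holds no difference between cultures.

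The members next to ZNF561 on either side read above 0 on the same arrays, by less. ZNF121, with its probe at chr19:9677285-9677344, changed by 0.74, 0.18 and 0.89, with control levels of 8.86, 8.72 and 8.72 and treated levels of 9.60, 8.90 and 9.61. Its second probe gave 0.16, -0.04 and 0.50, so the size of this change depends on the probe. ZNF562, on the other side, changed by 0.54, 0.03 and 0.50, just under the 1.5-fold line, while its other probes ran from 0.30 to 1.15 on the decitabine-labelled array and from 0.31 to 0.98 with both agents. The values of ZNF562 and those of ZNF426 and ZNF560 are given because these genes lie next in line, and they were picked after their values were seen. ZNF426, next beyond ZNF121, changed by 0.23, 0.08 and 0.01, and ZNF560, beyond it, was not above background. Further out in the cluster ZNF266 and ZNF317 lay below 0 on every array, at -0.31, -0.21 and -0.45 and at -0.30, -0.36 and -0.40. The other probe of ZNF266 lay nearer 0, at -0.13, -0.01 and -0.07. Cluster 2 thus held the largest rise among the 217 genes beside genes that read below 0, and its median change was 0.23, 0.04 and 0.11. With median centring it was -0.02 and -0.03 on the decitabine-labelled and combination arrays, against -0.12 and -0.10 over all genes.

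Some promoters of this neighbourhood share a sequence. The motif TGACGTCA, which reads the same on both strands, is known as the cyclic AMP response element (CRE). It was found in 7 of the 185 members with a RefSeq promoter (250 bases before to 50 after the start), or 3.78%. The share was 2.78% of measured genes with a promoter and 1.98% of all promoters listed. Among ZNF genes on other chromosomes it was higher than in the members, at 4.6%. The motif search was not among the measures planned beforehand. Of the 7, 5 lie in cluster 2. ZNF560, between ZNF266 and ZNF426, lacks the motif, as do ZNF414, ZNF558, ZNF317 and ZNF177 of that cluster. The 5 promoters with it are shown because it sits in a like setting in all 5, with TGACGTCA in capitals (RefSeq, GRCh38.p14, each on the minus strand of the chromosome).
ZNF266, chr19:9435574-9435630: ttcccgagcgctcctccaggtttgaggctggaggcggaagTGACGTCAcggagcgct
ZNF426, chr19:9538646-9538706: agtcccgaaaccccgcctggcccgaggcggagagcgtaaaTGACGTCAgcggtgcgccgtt
ZNF121, chr19:9584527-9584594: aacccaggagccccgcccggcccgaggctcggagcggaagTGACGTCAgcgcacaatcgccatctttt
ZNF561, chr19:9621233-9621295: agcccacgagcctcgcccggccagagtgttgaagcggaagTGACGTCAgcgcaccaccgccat
ZNF562, chr19:9675100-9675147: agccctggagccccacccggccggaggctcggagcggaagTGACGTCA
The motif begins 17, 21, 50, 23 and 7 bases before the start in this order. The longest run that ZNF561 and ZNF121 share is 22 bases and includes the motif. The members holding it did not move alike: of the 5 in cluster 2, ZNF561 and ZNF121 rose, ZNF562 came near the 1.5-fold line, ZNF426 stayed near 0 with both agents and ZNF266 lay below 0. The other 2, ZNF543 and ZNF547 in cluster 9, changed by -0.09, 0.10 and 0.26 and by -0.32, -0.03 and -0.14. A motif match describes these letters and no bound factor.

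Beyond cluster 2, ZNF556 in cluster 1 (chr19:2878321-2878380) rose on the decitabine-labelled and combination arrays. It changed by 0.84, 0.44 and 0.78, from control levels of 9.29, 9.17 and 9.26 to treated levels of 10.13, 9.61 and 10.04. Every treated value lay above every control value. Its neighbour ZNF555 went down on the same arrays, by -0.42, -0.17 and -0.56. ZNF556 has 1 probe, so no second reading exists.

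ZNF440 in cluster 3 shows how far a call can rest on the probe. Its brightest probe changed by 0.95, -0.10 and 0.68 and its other probe by -0.24, -0.24 and -0.32. The rule for naming genes leaves out genes whose probes oppose each other, and ZNF440 is named because it passed 1.5-fold on 2 arrays. Of the 81 members with more than 1 probe, all probes changed in the same direction in 48, 41 and 51 on the 3 arrays. The median gap between the probes of 1 gene was 0.21, 0.16 and 0.20, more than the SD of repeated spots.

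ZNF146 in cluster 6, a protein made of zinc fingers with no KRAB domain, changed by 0.63, 0.37 and 0.39. Its second probe gave 0.37, 0.57 and 0.43, so that all 6 readings were above 0. ZNF428 in cluster 7 was the sole member past 1.5-fold on the carboplatin-labelled array, at 0.68, beside 0.37 and 0.21 on the decitabine-labelled and combination arrays.

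Falls were fewer than rises here, but not under every scaling: with median centring 12 rose and 18 fell on the decitabine-labelled array and 4 rose and 22 fell with both agents, and with the software's log ratio 12 rose and 14 fell, 6 rose and 9 fell, and 13 rose and 15 fell on the 3 arrays. In the authors' values 4 rose and 5 fell with both agents. ZNF627 at the start of cluster 3 (chr19:11729303-11729362) changed by -0.50, -0.35 and -0.97, from control levels of 10.04, 10.04 and 10.14 to treated levels of 9.54, 9.69 and 9.17. All treated values lay below all control values, and the lowest was with both agents. ZNF443, also in cluster 3, changed by -0.41, -0.13 and -0.60. ZNF700 and ZNF823 of the same cluster stayed within the 1.5-fold line, at -0.46, -0.42 and -0.50 and at -0.25, -0.16 and -0.55. The other probe of ZNF700 lay nearer 0, at -0.19, -0.19 and -0.15.

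A further 3 calls on the decitabine-labelled array sat beside the left edge of that array. In its columns 1 to 9 the control channel was lower than on the other arrays by a median log2 difference of -0.91, and 59.8% of spots were at least 1.5-fold lower, against 8.56% in column 10 and 0.221% in the rest. The probes of ZNF548, ZNF442 and ZNF226 that were used lie in column 10. ZNF548 read 6.68 in the control channel there against 7.69 and 7.69 on the other arrays, while its treated channel read 7.71, 7.62 and 7.58. Its change of 1.02 thus came with a control channel that stood apart, and its other probe gave 0.06. ZNF442 had the same form, with control levels of 6.65, 7.49 and 7.47 and a change of 0.81. ZNF226 differed from these, as its control channels lay close together, at 11.09, 11.15 and 11.05. Its treated channels read 10.44, 11.12 and 10.63. It changed by -0.65, -0.04 and -0.42, while its other probe gave -0.08, 0.14 and 0.03.

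**Figure D3:**
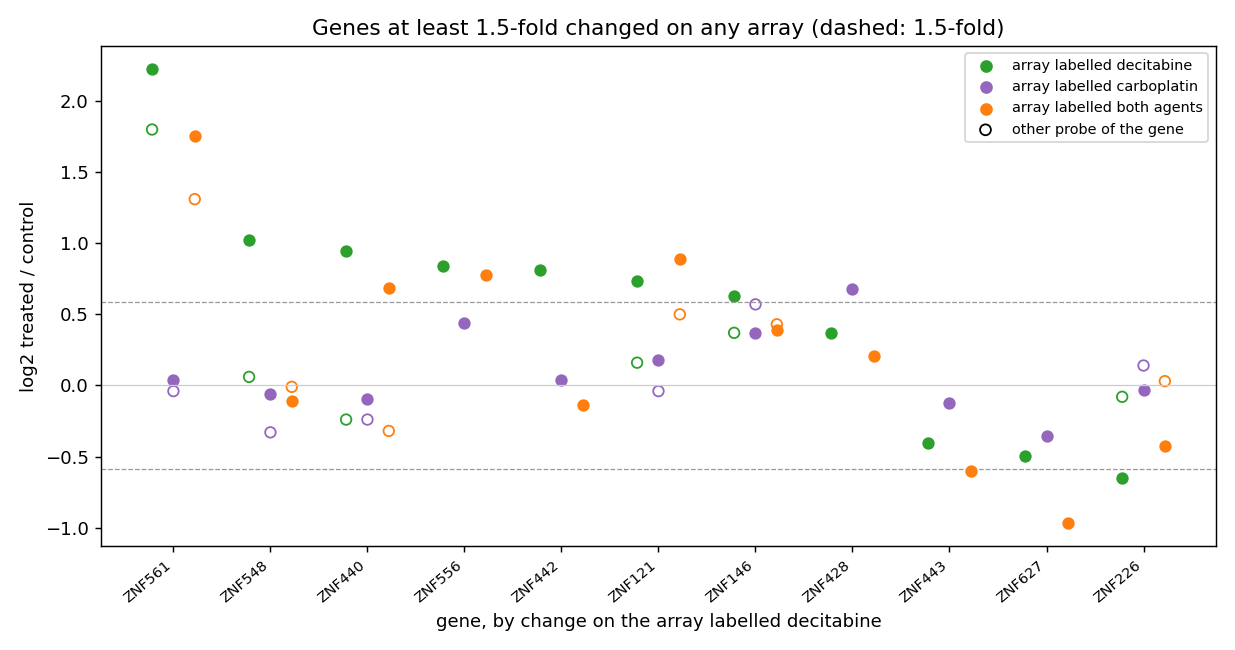
Log2 treated over control for the 11 members at least 1.5-fold changed on any array, ordered by the change on the decitabine-labelled array. Filled points are the brightest probe, open points other probes of the gene, colours the arrays and dashed lines 1.5-fold. ZNF561 has filled and open points above the line on the decitabine-labelled and combination arrays, whereas ZNF548 and ZNF440 have an open point near or below 0.

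Control channels also differed from array to array, though no treatment separates them. Pairs of control channels differed at least 1.5-fold for 6, 6 and 3 members, or 2.76%, 2.76% and 1.38%, beside 0.647%, 0.825% and 0.59% of all genes. Over the 3 pairs 8 members were involved: ZNF442, ZNF90, ZNF404, ZNF468, ZNF160, ZNF835, ZNF548 and ZNF552, picked after their values were seen. Changed members numbered 8 on the decitabine-labelled array, 1 on the carboplatin-labelled array and 6 on the combination array. These counts are unlike those between controls. A change compares both channels of the same spot, whereas a pair of controls compares spots of different arrays. ZNF90 read 6.1, 7.8 and 6.3 in the control channels and 6.1, 7.7 and 6.3 in the treated channels, so both moved together. In ZNF548 and ZNF442 the control channel alone stood apart. The counts between controls thus set no noise level for the changes.

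The combination array resembled the decitabine-labelled array for the members that moved. Taking the change with both agents minus that on the decitabine-labelled array, 0 members were higher by 1.5-fold and 2 were lower, ZNF548 and ZNF442, whose column 10 spots are described above. Over all genes 1.8% were higher and 0.321% lower. Against the carboplatin-labelled array, 3 members were higher with both agents (ZNF561, ZNF121 and ZNF440) and 1 was lower (ZNF627), beside 4.14% and 3.36% of all genes. These differences rest on 1 array each.

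**Figure D4:**
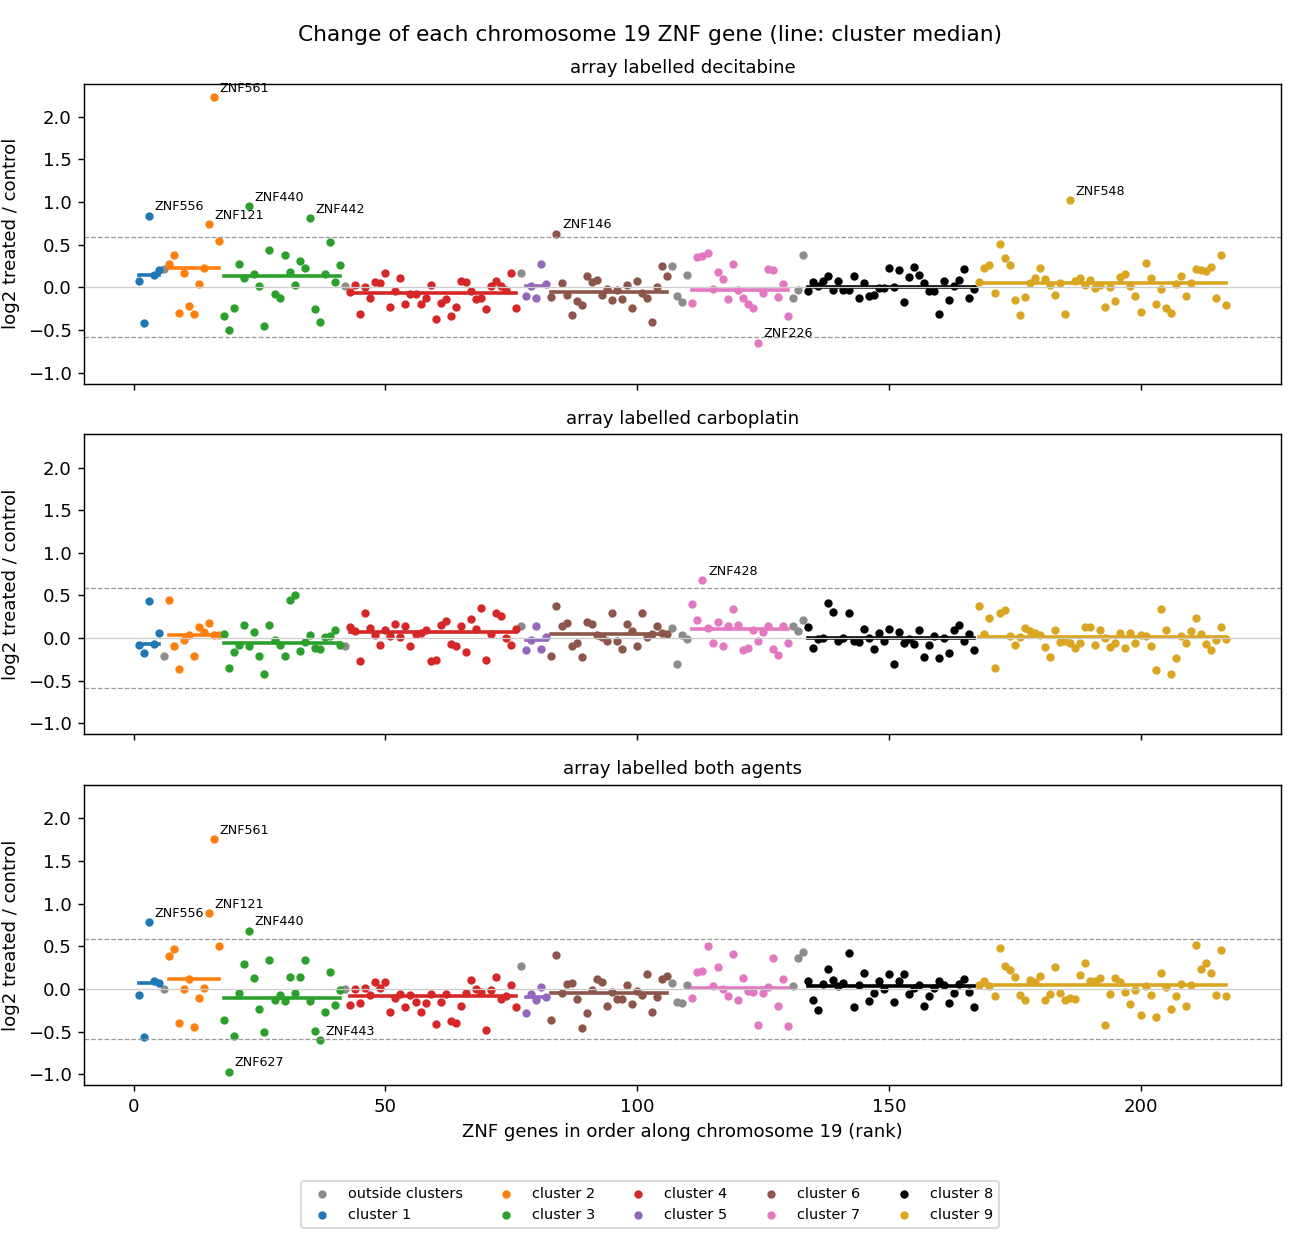
Log2 treated over control of the 217 ZNF genes in their order along chromosome 19, 1 panel per array, with colours for the 9 clusters, coloured lines at the cluster medians and dashed lines at 1.5-fold. The genes past 1.5-fold are named. They lie in clusters 1 to 3, 6, 7 and 9, and the 34 genes of cluster 4 all stay inside the dashed lines.

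On the decitabine-labelled array the cluster medians ran from -0.07 in cluster 4 to 0.23 in cluster 2, a spread of 0.29. On the carboplatin-labelled and combination arrays the spread was 0.17 and 0.21. It rested on the scaling: with processed signals it was 0.875, 0.371 and 0.316, with median centring 0.665, 0.840 and 0.588, and with columns 1 to 9 kept 0.516 and 0.356 on the decitabine-labelled and combination arrays. Cluster 4 held 0 genes past 1.5-fold on any array, and the side of 0 on which its genes lay differed by array. With both agents 26 of 34 were below 0 (median -0.08) and on the decitabine-labelled array 21 (median -0.07), whereas on the carboplatin-labelled array 23 of 34 were above 0 (median 0.07). Of all genes 8556 of 17460, 8759 of 17456 and 8841 of 17459 were below 0 on the combination, decitabine-labelled and carboplatin-labelled arrays. Among its 23 genes above background in all channels, 20 were below 0 with both agents, with a median of -0.16, and 19 on the decitabine-labelled array, with a median of -0.13. On the carboplatin-labelled array 16 of these 23 were above 0, with a median of 0.11. The median of cluster 4 stayed below 0 on the decitabine-labelled and combination arrays under all 9 alternatives, from -0.31 to -0.04 on the decitabine-labelled array and from -0.34 to -0.07 with both agents. The lowest gene was ZNF99, at -0.49 with both agents, followed by ZNF708, at -0.42, both named after their values were seen in this respect. Their other probes lay nearer 0 with both agents, at -0.12 and 0.11 for ZNF99 and at -0.05 and -0.12 for ZNF708. These genes are not independent readings: the probes of 22 of the 34 share a run of at least 20 bases with a probe of another member, beside 11 of the other 183 members, and the part of shared signal in these values was not tested.

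In cluster 3 the genes above background leaned in different directions on different arrays. Of its 20 such genes, 14 were above 0 on the decitabine-labelled array and 6 with both agents, with medians of 0.17 and -0.14. Neighbouring members along the chromosome had changes that were weakly alike on the decitabine-labelled and combination arrays, with Spearman's rho of 0.17 and 0.16 over 201 pairs of neighbours, and -0.04 on the carboplatin-labelled array. The same measure over 998 pairs of other chromosome 19 genes was 0.09, 0.10 and 0.10. Neighbours share sequence and the array, and the values describe these arrays.

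Members with a known task gave the following readings. ZNF91 and ZNF93, which silence SVA and LINE-1 retrotransposons, changed by 0.07, 0.29 and 0.15 and by 0.17, 0.09 and 0.08. ZNF274, which brings SETDB1 to the zinc finger genes themselves, changed by 0.21, 0.23 and 0.51, all above 0 and under 1.5-fold. ZNF473, a part of the machinery that trims histone mRNA, changed by 0.38, 0.21 and 0.44, though its other probe gave 0.03, 0.16 and 0.14. ZNF224, a KRAB repressor first studied at the aldolase A promoter, changed by -0.20, -0.12 and -0.03. ZNF675, an inhibitor of TRAF6 signalling, changed by 0.01, 0.26 and -0.11. ZNF175, ZNF350, a partner of BRCA1, ZNF382 and ZNF420, a regulator of p53, were at background on all arrays.

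The brightest member probes were those of ZNF525, ZNF579 and ZNF444, and the dimmest above background those of ZNF93, ZNF417 and ZNF567. Brightness depends on the probe and sets no order between genes. ZNF525 stayed at 0.01, 0.09 and -0.05 and ZNF444 at 0.26, 0.02 and 0.23. ZNF567 was above background in the control channel on all 3 arrays and in the treated channel on none, so that its fall is a bound: at least 1.06-fold, 1.17-fold and 1.34-fold. Elsewhere, ZNF581, the member of cluster 9 with the largest mean change, read 0.51, 0.30 and 0.48, and ZNF283 in cluster 7 read 0.40, 0.11 and 0.50.

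Because decitabine lowers DNA methylation, members known for methylated promoters in tumours were read as a list. Of 14 such genes 13 were measured, and 0 of 13 passed 1.5-fold on any array. Beside the 5.12% of rises and 4.9% of falls over all genes on the decitabine-labelled array, which come to less than 1 gene of 13 each way, this count is near the background. Their median change was -0.02, 0.01 and -0.07. ZNF382 changed by -0.33, -0.10 and 0.07 with all channels at background, its control levels being 6.25, 6.06 and 6.02. ZNF177 alone in this list was above background in all 6 channels and changed by -0.22, 0.04 and 0.11. ZNF835 showed 7.72 in the control channel of the decitabine-labelled array against 6.17 and 6.28 on the other arrays, with 7.82, 6.06 and 6.15 in the treated channels, so that both channels of 1 array stood apart and the change stayed at 0.10, -0.11 and -0.12. DNA methylation itself was not analysed here.

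The CpG content of the promoters gave no clear order among the members. The 185 members with a promoter had a median of 20 CpG pairs in 300 bases and a GC content of 60%, beside 23 pairs and 63.3% for all measured genes with a promoter. Spearman's rho between the CpG count and the change was 0.10, -0.01 and 0.16 over the 185 genes, which share arrays and, in part, sequence. Of the 62 promoters with the fewest CpG pairs (2 to 17) 2 belonged to genes that rose on the decitabine-labelled array, of the middle 61 there were 3 and of the 62 with the most (23 to 49) there were 2. CCAAT, on either strand, was in 53.5% of the member promoters, beside 36.6% of measured genes and 45.1% of ZNF genes on other chromosomes. The GC box GGGCGG was in 66.5% against 61.2% of measured genes, and the E-box CACGTG in 3.24% against 9.11%. The CCAAT box was thus the motif searched whose share lay furthest above that of other genes, but it was spread unevenly over the clusters. Every listed promoter of clusters 1 and 4 held it, as did those of cluster 3 save ZNF653 and ZNF799. In cluster 6 ZNF585A, ZNF585B and ZNF573 alone held it. Of the 185 promoters 41 share a run of 30 bases with that of another member, so they are not independent readings. The part of shared sequence in the CCAAT share was not tested.

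The partners through which KRAB proteins silence were read beside them. Of 25 listed genes 23 were measured, and 22 of the 23 were above background in the control channel on all 3 arrays. On the decitabine-labelled array 2 fell at least 1.5-fold and 0 rose, on the carboplatin-labelled array 0 moved, and with both agents 3 fell and 0 rose, with list medians of -0.09, 0.09 and -0.13. Beside the 4.9% and 5.82% of all genes that fell on these arrays, 2 and 3 of 23 is a gap of 1 or 2 genes, and 5.12% and 7.39% of all genes rose. The falls were UHRF1, which guides DNMT1 to newly copied DNA, at -0.83, 0.30 and -0.77, CBX1, which encodes HP1β, at -0.75, -0.24 and -0.80, and, with both agents, MPHOSPH8, a part of the HUSH silencing complex, at -0.53, -0.37 and -0.59. TRIM28, the partner that KRAB binds, changed by -0.09, 0.09 and -0.03. SETDB1, which methylates lysine 9 of histone H3, changed by -0.27, -0.40 and -0.32. CBX5, which encodes HP1α, changed by -0.34, 0.14 and -0.35. DNMT1 changed by -0.27, 0.32 and -0.15. The study lists UHRF1 among genes lowered by carboplatin and reports lower CBX5 mRNA with that drug. For HP1β it reports protein that neither drug nor their combination altered, whereas CBX1 was read here as RNA. Here UHRF1 and CBX5 read below 0 on the decitabine-labelled array and above 0 on the carboplatin-labelled array. Their directions for a single agent therefore hold for the labelled arrays alone.

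The labelled cell type was checked by its markers. Of 8 epithelial markers measured 7 were above background in the control channel on all 3 arrays, CDX1 on none. Of 9 markers of fibroblasts, leukocytes and endothelium, 6 were above background in no control channel, PTPRC, PECAM1 and COL1A2 among them, while COL1A1 and CD3E were on all 3 arrays. Their part in the values of the ZNF genes was not tested.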

How the data were processed

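RNA of treated and control YB5 cells was measured on 3 dual-colour Agilent whole human genome arrays. Spot intensities were deposited as read from the image by Agilent Feature Extraction (9.5.3.1 per the file headers, 8.5.1.1 in the submitters' processing notes), and mean and median intensities are not background subtracted. The log10 ratio in the deposited scanner files is red over green after that software's background subtraction, detrending and dye normalisation. The log2 ratios in the authors' table were loess normalised by the authors with limma. Its direction, treated over control, follows from setting it against the scanner files (Pearson's r of 0.908 to 0.959), and its background step is not given in the sources used here.

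With R 4.3.3 and limma 3.58.1, mean intensities were corrected by normexp (offset 50) against the local background, columns 1 to 9 were left out on every array, and each array was loess normalised with control and outlier spots at weight 0. Levels of single channels were scaled by Aquantile. Spots of 1 probe were averaged, and the brightest probe stood for its gene. Tables were handled with Python 3.11.15, pandas 2.3.3 and numpy 2.4.6, and figures drawn with matplotlib 3.10.9. A script checked on simulated arrays recovered known changes. Of 41000 gene probes 29381 matched a RefSeq gene. All 217 members matched, 7 under another symbol, and names are those of the files. Members were grouped by position, and the treatment of each array came from its labels.

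Genes named were, on each array, the 5 largest rises and falls among members above background in at least 1 channel whose probes change alike, the largest mean change in each cluster, the 3 brightest and 3 dimmest members above background, 12 members with known tasks and the methylation list. Members and lists were chosen with earlier results of these data known. A count of C2H2 fingers and KRAB domains was not made. Alternatives were other background and normalisation steps, the authors' values, the edge columns, the choice of probe and other limits of clusters. The share of spots above background, 65.0% to 70.2%, sets what can be read.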

Additional observations from a re-analysis of the deposited data

Results flagged for a closer look

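Of the 12 members whose probes lie in columns 1 to 9 alone, ZNF812 was singled out because its signal lies in spots left out of the comparisons as reported, and used only where columns 1 to 9 were kept as an alternative: it changed by 0.59 on the combination array, just at 1.5-fold, with 0.93 and 0.10 on the decitabine-labelled and carboplatin-labelled arrays. Its treated channel was well above background on the decitabine-labelled and combination arrays, and its control channel on none. On the decitabine-labelled array, where these columns had a low control channel, the same 12 genes ran from -0.19 in ZNF536 to 1.74 in ZNF584.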

How the results depend on the processing

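The numbers given here are for the members on the decitabine-labelled, carboplatin-labelled and combination arrays. With the software's processed signals 71, 6 and 13 rose and 14, 9 and 15 fell, the medians of the single-agent arrays became 0.202 and 0.157, and the spreads between cluster medians were 0.875, 0.371 and 0.316. With the software's log ratio 12, 6 and 13 rose and 14, 9 and 15 fell, with spreads of 0.379 and 0.316 on the first and last arrays. Median centring in place of loess, which moved the median of all genes by -0.118, -0.129 and -0.097, gave 12 and 17 rises on the single-agent arrays, 18, 5 and 22 falls, a median of 0.113 on the first and spreads of 0.665, 0.840 and 0.588. In the authors' values 2 fell on the first array, 3 rose on the second (spread 0.255) and 5 fell on the last. Keeping columns 1 to 9 gave 21 rises on the first array and spreads of 0.516 and 0.356 on the first and last. Leaving out columns 1 to 12, chosen after the data were seen, gave 0 falls on the first array and 1 on the last. The mean over probes gave 4 rises and 0 falls on the first array. Among genes above background in both channels, the spreads were 0.379 and 0.409 on the first and last arrays. The cause of these shifts was not tested. Of 114 values of this kind 73 stayed within 1.5 times the count or within the spread of repeated spots. ZNF561 stayed past 1.5-fold in 9 of 9 alternatives on the first and last arrays, from 1.86 to 2.47 and from 1.40 to 1.96, and so did ZNF627 with both agents, from -1.32 to -0.96. ZNF556 passed in 8 of 9 on both, ZNF121 in 7 and 8, ZNF146 in 6 and ZNF548 in 6. Leaving out a replicate was not possible. No paired analysis was possible because each treatment has 1 array. Signal over background limits the rest: 77 members were above it in no channel.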
